A study of Mus musculus with 18 samples.

Results

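Tmem119, Fcrls, Olfml3, Slc2a5, Selplg, Cst3, Bin1 and Sparc are 8 genes known from resting, or homeostatic, microglia, most of which encode surface or secreted proteins. They were found in the count table by matching Ensembl identifiers to mouse symbols, and all 8 were present among 54532 genes. The genes were picked by name, with earlier results of these data known.

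Microglia are the resident macrophages of the retina and brain. In the healthy tissue they carry a characteristic set of surface and secreted products, which is known to depend on transforming growth factor beta (TGF-beta) signalling through its receptors and SMAD proteins. In degenerating tissue, microglia commonly lower such genes and raise others tied to phagocytosis and lipid handling.

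The libraries came from retinas of FVB mice with the rd1 mutation at postnatal day 30, an age by which rods have been lost in this strain. Every group thus carried the rd1 mutation and AAV8-GFP, a virus for green fluorescent protein injected under the retina. The TGFB1 groups had received AAV8-TGFB1 with it. Sorted microglia were measured in 7 GFP and 7 TGFB1 libraries (replicates 2 to 8), and sorted non-microglia, the remaining retinal cells, in 2 GFP and 2 TGFB1 libraries (replicates 1 and 2). The promoter of either virus, the antibody used for sorting and the number of animals behind a library were not given in the labels. The p-values therefore reflect variation among libraries, some of which may be technical. There was no uninjected and no wild-type group.

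Libraries held 1582451 to 3064027 counts. Levels are in CPM, counts per 1000000 of the TMM-scaled library size, where TMM (trimmed mean of M-values) corrects for differences in composition. Tgfb1, the gene delivered, had 0 counts in both GFP non-microglia libraries and 402 and 462 counts in the TGFB1 ones. In microglia it stood at 11.8 ± 2.46 CPM (SD, n = 7) in GFP and 13.5 ± 5.72 CPM (n = 7) in TGFB1 libraries (edgeR log2 fold change 0.20, SE 0.22, adjusted p = 0.931). Of 10 microglia markers, all 10 were detected in microglia libraries, with summed levels of 39912 to 45537 CPM. Mueller glia markers (11 genes) summed to 340 to 788 CPM in GFP and 265 to 669 CPM in TGFB1 microglia. In non-microglia, which were scaled separately, they summed to 15936 to 18596 CPM. On CPM scaled over all 18 libraries, the mean sum in microglia was 3.82% of that in non-microglia for GFP and 3.33% for TGFB1. The 3 highest sums among microglia libraries were in GFP replicate 5, GFP replicate 2 and TGFB1 replicate 6. Monocyte and perivascular macrophage markers (11 genes) summed to 12.6 to 34.6 CPM in GFP and 16.5 to 65.0 CPM in TGFB1 microglia. The mean of that sum was 24.9 ± 7.24 CPM in GFP and 36.1 ± 16.1 CPM in TGFB1 microglia, although Ly6c2, S100a8 and S100a9 were at 0 in all 7 TGFB1 libraries.

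Positions are of the GRCm38 assembly, and only Tmem119 and Selplg are neighbours. Tmem119 (ENSMUSG00000054675) lies on the minus strand of chromosome 5, 113793729 to 113800516, and Selplg (ENSMUSG00000048163) on the same strand at 113818536 to 113832644. The gap between them is 18019 bases and holds 1 annotated gene, Gm19931, with 10 counts in all 18 libraries. Fcrls (ENSMUSG00000015852, 87250758 to 87263738) and Olfml3 (ENSMUSG00000027848, 103722222 to 103738001) are on the minus strand of chromosome 3. Slc2a5 (ENSMUSG00000028976) is on the plus strand of chromosome 4, 150119283 to 150144169. Cst3 (ENSMUSG00000027447) is on the minus strand of chromosome 2, 148871722 to 148875692. Sparc (ENSMUSG00000018593) is on the minus strand of chromosome 11, 55394500 to 55423183. None of these 7 genes shares exon bases with another annotated gene.

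RefSeq promoter windows (GRCm38.p6, 250 bases before to 50 after the start) were matched for 5 of the 8 genes. They were searched on both strands for CAGAC, the core letters of the SMAD box, and GAGGAA, an ETS core of the kind that PU.1 recognises. The Olfml3 and Slc2a5 windows are shown because, of these 5 genes, they had the largest differences between treatments. Those differences were in opposite directions, and neither was called. The Cst3 window is shown because Cst3 was the most abundant. Matches to either motif are in capitals. Olfml3 is at chr3:103737952-103738251 (minus strand), Slc2a5 at chr4:150119094-150119393 (plus strand) and Cst3 at chr2:148875463-148875762 (minus strand), each written 5′ to 3′ along the gene.
Olfml3: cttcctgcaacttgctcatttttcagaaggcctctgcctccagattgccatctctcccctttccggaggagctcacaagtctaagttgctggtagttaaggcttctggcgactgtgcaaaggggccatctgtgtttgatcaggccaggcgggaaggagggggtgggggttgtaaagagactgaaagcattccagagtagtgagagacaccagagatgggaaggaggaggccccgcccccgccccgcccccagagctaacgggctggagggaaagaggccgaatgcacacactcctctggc
Slc2a5: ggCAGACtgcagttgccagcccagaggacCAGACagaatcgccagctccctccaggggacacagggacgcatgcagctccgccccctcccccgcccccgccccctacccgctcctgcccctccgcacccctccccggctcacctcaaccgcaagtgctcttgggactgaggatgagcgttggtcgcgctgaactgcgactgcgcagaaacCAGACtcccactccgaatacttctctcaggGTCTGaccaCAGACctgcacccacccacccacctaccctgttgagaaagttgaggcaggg
Cst3: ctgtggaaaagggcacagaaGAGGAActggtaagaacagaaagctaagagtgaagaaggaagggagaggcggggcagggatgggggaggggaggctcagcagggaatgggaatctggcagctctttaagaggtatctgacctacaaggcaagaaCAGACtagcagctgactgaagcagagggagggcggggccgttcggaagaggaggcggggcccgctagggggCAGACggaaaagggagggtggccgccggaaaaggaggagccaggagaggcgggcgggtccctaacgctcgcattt
The Olfml3 window held 0 matches to either motif, the Slc2a5 window 5 to CAGAC and 0 to GAGGAA, and the Cst3 window 2 to CAGAC and 1 to GAGGAA. The Fcrls window held 2 and 1, and the Sparc window 2 and 0. No 2 matches overlapped in these windows. Among all 32851 windows, 49.6% held CAGAC and 28.3% held GAGGAA. The RefSeq start equals the GENCODE start for Olfml3 and lies 61 bases from it for Slc2a5, 180 for Cst3, 214 for Fcrls and 3103 for Sparc. A match is a run of letters in the window and no measure of binding. These shares give no background for the count of matches in a window. A link between matches and the differences between treatments was not tested.

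Setting TGFB1 beside GFP microglia asks whether added TGFB1 alters these genes in a degenerating retina. None of the 8 was called: each had an edgeR adjusted p of 0.230 or more, against 34 of 10970 genes tested over the whole table (0.31%, of which 0.237% higher and 0.0729% lower). At an unadjusted p under 0.05 there were 2 of the 8, Tmem119 and Olfml3, which lay in opposite directions, beside 730 of all genes. The median log2 fold change of the 8 was 0.02, beside 0.00 over all genes tested, and 5 of 8 were positive. The groups overlapped for all 8, as for nearly all genes: they were apart for 25 of 10970 (0.228%). The 95% intervals of all 8 lay between -0.51 (the lower bound for Bin1) and 0.59 (the upper bound for Slc2a5) on the log2 scale, so that a change of 2-fold or more was outside every interval. In bulk libraries, fewer cells of a type and less RNA per cell cannot be told apart.

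Tmem119, a transmembrane protein widely used to mark microglia, ran from 2958 through a median of 2996 to 3254 CPM in GFP microglia, and from 3111 through 3468 to 3789 CPM in TGFB1 microglia. The groups overlapped, with 5 of 7 TGFB1 libraries above the highest GFP library and all 7 above the GFP mean. Its mean went from 3051 ± 107 to 3425 ± 226 CPM (SD, n = 7 each). The edgeR log2 fold change was 0.17 (SE 0.05, 95% interval 0.07 to 0.27, unadjusted p = 0.00183, adjusted p = 0.230). DESeq2 called it, with a log2 fold change of 0.17 and an adjusted p of 0.0419. Over all 27 alternatives the adjusted p ran from 0.0419 to 0.979 and the log2 fold change from 0.13 to 0.19, positive in each. Within replicates 2 to 4 it was 0.13, and within replicates 5 to 8 it was 0.19.

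Selplg, the P-selectin ligand PSGL-1 through which leukocytes tether to vessels, ran from 3449 through 3989 to 4106 CPM in GFP and from 3515 through 3921 to 4319 CPM in TGFB1 microglia. The ranges overlapped, with 2 of 7 TGFB1 libraries above the highest GFP library. Means were 3890 ± 241 and 3961 ± 264 CPM (edgeR log2 fold change 0.03, SE 0.05, 95% interval -0.08 to 0.13, adjusted p = 0.964). Of the other selectins and sialomucins, a list of 6 genes, only Cd34 passed the count filter in microglia. Cd34, a sialomucin of blood progenitors and endothelium, was higher in TGFB1 microglia, at 465 ± 44.0 CPM in GFP and 590 ± 37.8 CPM (edgeR log2 fold change 0.34, SE 0.06, adjusted p = 0.00795).

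Fcrls, an Fc receptor-like scavenger receptor family member known from mouse microglia, was the lowest of the 8. It ran from 39.3 through 48.0 to 57.0 CPM in GFP and from 26.6 through 45.1 to 60.3 CPM in TGFB1 microglia. Both the lowest and the highest values were in TGFB1 libraries, replicates 6 and 2. Means were 46.9 ± 7.03 and 42.0 ± 11.5 CPM (edgeR log2 fold change -0.15, SE 0.14, 95% interval -0.44 to 0.14, adjusted p = 0.918). Of 8 related Fc receptor genes, 4 were tested in microglia and 0 were called. Fcgr1, the high-affinity receptor for IgG, had a log2 fold change of -0.11 (SE 0.06, edgeR adjusted p = 0.839), and Fcgr2b, an inhibitory receptor, one of -0.02 (adjusted p = 0.992).

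Slc2a5, the fructose transporter GLUT5, ran from 69.2 through 107 to 120 CPM in GFP and from 103 through 115 to 155 CPM in TGFB1 microglia. GFP replicates 6 and 7 were low, at 70.2 and 69.2 CPM, and TGFB1 replicates 5 and 8 were high, at 149.5 and 155 CPM. The groups overlapped, with 3 of 7 TGFB1 libraries above the highest GFP library. Means were 100 ± 21.6 and 122 ± 21.5 CPM (edgeR log2 fold change 0.29, SE 0.14, 95% interval -0.01 to 0.59, adjusted p = 0.772). The direction was not shared by replicate ranges: within replicates 2 to 4 the log2 fold change was -0.05, with means of 109 and 105 CPM, and within replicates 5 to 8 it was 0.53, with means of 93.7 and 135 CPM. Of 9 other sugar transporter genes, 6 were tested and 0 called. Slc2a3, a glucose transporter, had the smallest p, at a log2 fold change of -0.88 (SE 0.25, edgeR adjusted p = 0.228), followed by Slc2a8, with -0.21 (adjusted p = 0.784).

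**Figure D1:**
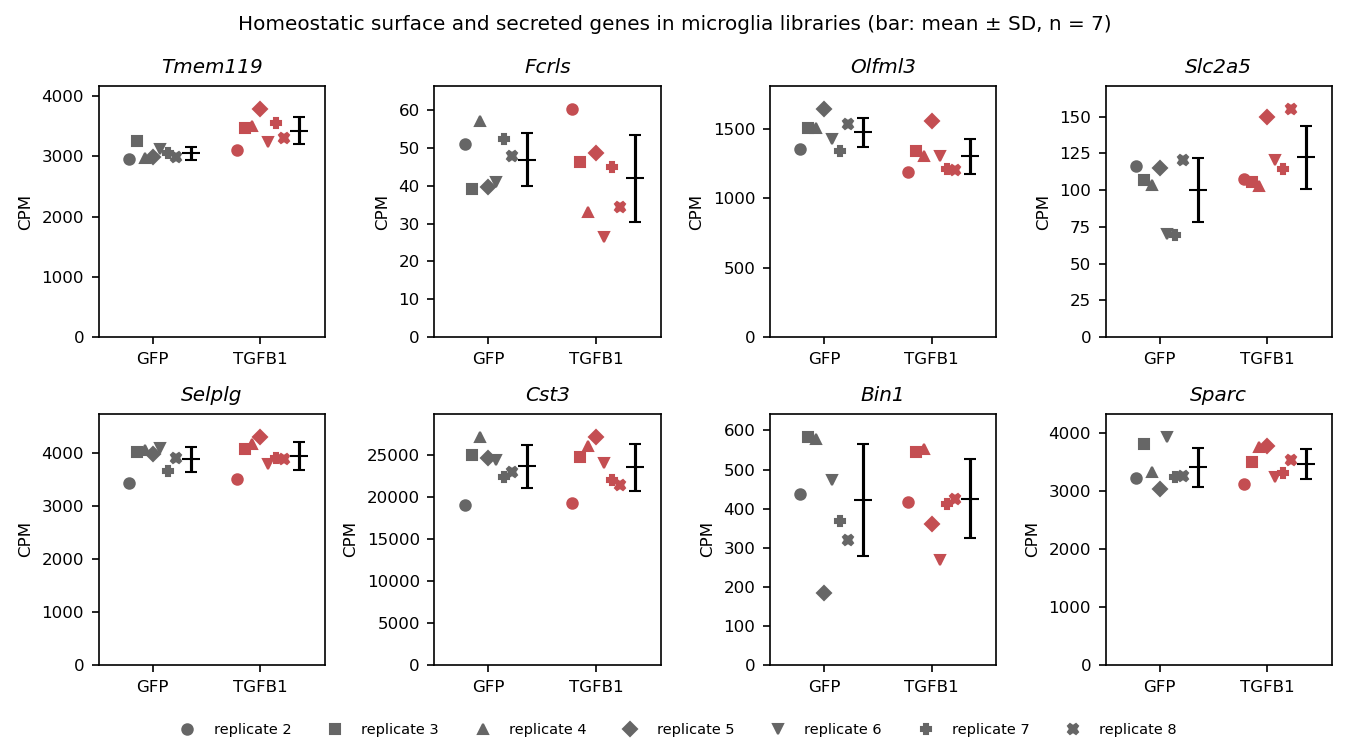
Level of each gene in CPM (vertical axis from 0) in every microglia library, GFP in grey and TGFB1 in red, with a marker shape for each replicate and a bar for the mean ± SD (n = 7). The groups overlap for all 8 genes, beside 25 of 10970 genes tested (0.228%) for which they do not. For Tmem119, 5 of 7 TGFB1 libraries are above all GFP libraries, and for Olfml3 6 of 7 are below all of them.

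Olfml3, a secreted olfactomedin-domain glycoprotein known to respond to TGF-beta1 in mouse microglia, ran from 1342 through 1506 to 1642 CPM in GFP and from 1191 through 1302 to 1555 CPM in TGFB1 microglia. Of the TGFB1 libraries, 6 of 7 lay below the lowest GFP library, and replicate 5, at 1555 CPM, lay above 6 of the 7 GFP libraries. Means were 1473 ± 106 and 1300 ± 127 CPM. The edgeR log2 fold change was -0.18 (SE 0.06, 95% interval -0.31 to -0.06, unadjusted p = 0.00627, adjusted p = 0.411). The log2 fold change was negative in all 27 alternatives, from -0.23 to -0.15, with adjusted p from 0.0976 to 0.999. Of 7 other olfactomedin genes 2 were tested and 0 called, Olfml2b at 0.31 (SE 0.22, edgeR adjusted p = 0.880) and Olfm4 at 0.22 (adjusted p = 0.923).

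Cst3, which encodes cystatin C, a secreted inhibitor of cysteine proteases, ran from 19008 through 24413 to 27069 CPM in GFP and from 19265 through 24058 to 27149 CPM in TGFB1 microglia. The ranges were nearly equal, and replicate 2 was the lowest library of each treatment. Means were 23624 ± 2542 and 23492 ± 2782 CPM (edgeR log2 fold change -0.01, SE 0.08, 95% interval -0.18 to 0.17, adjusted p = 0.995). Of 7 other cystatin genes 2 were tested and 0 called: Cstb, an intracellular inhibitor, at 0.17 (edgeR adjusted p = 0.880) and Cst7, which encodes cystatin F and is known from activated microglia, at 0.10 (adjusted p = 0.955).

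Sparc, a secreted matricellular glycoprotein that binds collagen, ran from 3039 through 3267 to 3945 CPM in GFP and from 3125 through 3499 to 3789 CPM in TGFB1 microglia. All 7 TGFB1 libraries lay inside the GFP range. Means were 3412 ± 335 and 3469 ± 254 CPM (edgeR log2 fold change 0.02, SE 0.06, 95% interval -0.10 to 0.15, adjusted p = 0.975). Of 7 SPARC relatives 3 were tested and 0 called. Sparcl1, also called hevin, stood at 28.7 ± 19.1 and 12.7 ± 13.1 CPM (edgeR log2 fold change -1.25, SE 0.51, adjusted p = 0.667), highest in GFP replicate 2 and TGFB1 replicate 6, which were also among the 3 libraries highest in Mueller glia markers. Spock2, a proteoglycan gene, had -1.19 (SE 0.65, adjusted p = 0.816). The part of these markers in the values was not tested.

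Bin1, an intracellular protein that senses and bends membranes, had the widest relative spread of the 8 in GFP microglia. In TGFB1 microglia Fcrls, with a coefficient of variation of 27.3%, was above it. The gene (ENSMUSG00000024381) lies on the plus strand of chromosome 18, 32377230 to 32435737, and shares 6.22% of its exon bases with the antisense gene A830052D11Rik, which had 35 counts in all 18 libraries. Bin1 ran from 184 through 438 to 584 CPM in GFP and from 268 through 416 to 554 CPM in TGFB1 microglia, a spread with a coefficient of variation of 34.1% and 23.5%. All 7 TGFB1 libraries lay inside the GFP range. Means were 421 ± 144 and 426 ± 100 CPM (edgeR log2 fold change 0.02, SE 0.24, 95% interval -0.51 to 0.55, adjusted p = 0.995). Its lowest libraries, GFP replicate 5 and TGFB1 replicate 6, were among the 3 with the highest Mueller glia marker sums (788 and 669 CPM), while GFP replicate 2, with the other high sum (753 CPM), stood at 438 CPM. Without those 3 libraries its log2 fold change was -0.04. In replicates 2 to 4 the Bin1 mean was 534 ± 83.1 CPM in GFP and 505 ± 77.0 CPM in TGFB1 (n = 3 each), and in replicates 5 to 8 it was 337 ± 121 and 367 ± 71.5 CPM (n = 4 each). Of its relatives, Bin2, known from blood cells, had a log2 fold change of 0.05 (edgeR adjusted p = 0.936) and Bin3 one of -0.06 (adjusted p = 0.964), and Amph was not tested.

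**Figure D2:**
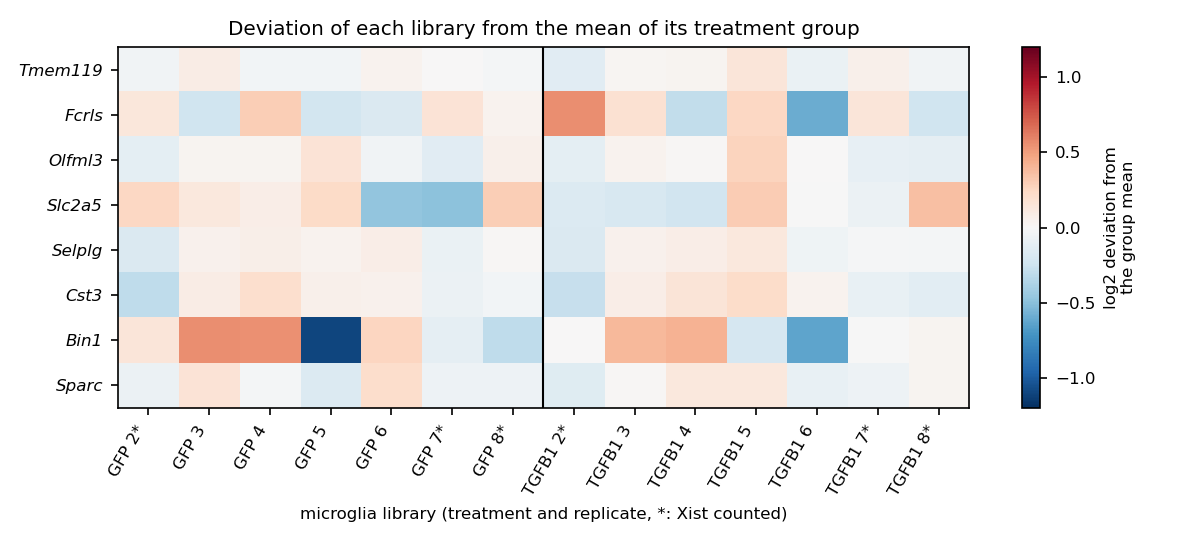
Deviation of each microglia library (columns, GFP left and TGFB1 right of the line, an asterisk for libraries with Xist RNA) from its treatment group's mean log2 CPM, for each gene (rows), with red above and blue below the mean. Bin1 has the deepest colours, down to -1.10 in GFP replicate 5. In replicate 2 of both treatments Cst3, Selplg, Tmem119, Olfml3 and Sparc are below the group mean, Cst3 the most.

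**Figure D3:**
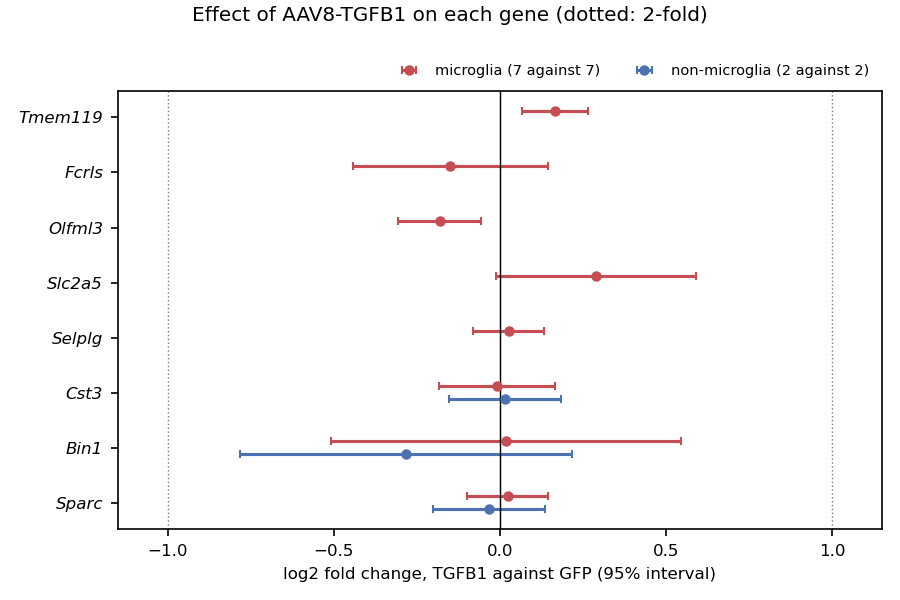
Log2 fold change of TGFB1 against GFP with its 95% interval (horizontal axis) for each gene, in microglia (red) and, for the 3 genes tested there, in non-microglia (blue), with 0 as a solid and 2-fold as dotted lines. In microglia every interval lies inside the 2-fold lines, that of Tmem119 above 0 and that of Olfml3 below 0.

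Other genes of the same state were set beside the 8. Of 26 other homeostatic microglia genes, 25 were tested and 0 called by edgeR (5 at an unadjusted p under 0.05, and 1 called by DESeq2 or by edgeR with the replicate block), with a median log2 fold change of -0.02 and 11 of 25 positive. Tgfbr1, a receptor chain for TGF-beta, had the smallest p, with a log2 fold change of 0.26 (SE 0.07, edgeR adjusted p = 0.142), followed by Crybb1, a crystallin gene expressed by microglia, with -0.56 (SE 0.19, adjusted p = 0.403). Of 24 genes known from activated microglia, 23 were tested, with a list median of 0.13. At an unadjusted edgeR p under 0.05 there were 11 of them, beside 730 of 10970 over all genes. Called higher were 4 of the 23, beside 0.237% of all genes tested: Csf1, a growth factor of macrophages (0.98, edgeR adjusted p = 0.0206), Clec7a, a beta-glucan receptor (0.83, adjusted p = 0.0256), Lgals3, the lectin galectin-3 (1.07, adjusted p = 0.0256), and Axl, a receptor tyrosine kinase for clearing dying cells (0.42, adjusted p = 0.0335). That count changed with single libraries left out: it was 0 without GFP replicate 3, TGFB1 replicate 7 or TGFB1 replicate 8, 1 without TGFB1 replicate 2 or 4, and 2 without GFP replicate 2, 4, 5 or 7 or TGFB1 replicate 3, and at most 6 (without GFP replicate 8). It was also 0 with the Mueller glia marker level as a covariate and 1 without the 3 libraries highest in those markers. It was 0 in replicates 5 to 8 alone, 2 in replicates 2 to 4 alone and 2 in the fit of all 18 libraries. With the Xist covariate it was 6, and with the replicate block or without the count filter it was 7. Of 23 TGF-beta pathway genes, 18 were tested, 4 had an unadjusted p under 0.05 and 1 was called, beside 0.31% of all genes tested. The called gene, Tgfbi, a matrix protein gene induced by TGF-beta in many cells, fell by 0.49 on the log2 scale (edgeR adjusted p = 0.00599).

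The comparison of sorted fractions asks how far each of the 8 genes belongs to microglia in this retina. All 8 were called higher in microglia than in non-microglia in GFP retinas, where 29.9% of 15321 genes were called higher and 64.2% in either direction, and all 8 in TGFB1 retinas, where 30.8% were called higher and 65.2% in either direction. The size differed widely, from no count at all in non-microglia (Selplg, Fcrls) to 39.2% of the microglia level (Sparc). Folds below are on CPM scaled over all 18 libraries, with intervals that cover counting error in the non-microglia only.

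Selplg, Fcrls and Tmem119 had at most 1 count in any non-microglia library. Selplg had 0 counts in all 4 non-microglia libraries against 66305 counts in GFP microglia, at least 8826-fold higher at a floor of 3 counts over both GFP non-microglia libraries. Fcrls had 0 counts in all 4 as well, at least 106-fold higher in GFP microglia, where its total was 792 counts. Tmem119 had 0 and 1 counts in the GFP and 1 and 1 in the TGFB1 non-microglia libraries, a ratio of 20761 in GFP (95% counting interval 3726 to 820001) that rests on that single count. For Selplg and Fcrls, which had 0 counts, that floor of 3 counts stands at 0.471 CPM in GFP non-microglia and is not the upper limit of a counting interval.

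Olfml3 had 4 and 3 counts in GFP and 0 and 7 in TGFB1 non-microglia, and was 1432-fold higher in GFP microglia (95% counting interval 695 to 3563). Slc2a5 had 10 and 6 counts in GFP and 6 and 7 in TGFB1 non-microglia, a 42.6-fold difference in GFP retinas (26.2 to 74.5) and a 61.9-fold one in TGFB1 retinas. Both were low but above Selplg in the non-microglia, and Slc2a5 stood at 2.32% of its microglia level there in GFP retinas, where the summed level of the microglia markers stood at 0.143%.

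Cst3, Bin1 and Sparc were clearly present outside microglia. Their CPM values in this paragraph are scaled within the non-microglia fraction. The percentages are on CPM scaled over all 18 libraries, so they cannot be derived from the CPM values printed. Cst3 had 1210 and 1430 CPM in GFP and 1322 and 1345 CPM in TGFB1 non-microglia, 4.01% of its microglia level in GFP retinas (log2 difference 4.64, SE 0.17, edgeR adjusted p = 5.05e-16). Bin1 had 44.6 and 31.7 CPM in GFP and 25.6 and 37.4 CPM in TGFB1 non-microglia, 6.51% of its microglia level in GFP retinas (log2 difference 3.93, SE 0.48, edgeR adjusted p = 3.22e-06). Sparc had 2015 and 1706 CPM in GFP and 1757 and 1882 CPM in TGFB1 non-microglia, 39.2% of its microglia level in GFP and 37.4% in TGFB1 retinas (log2 difference 1.35, SE 0.11, edgeR adjusted p = 2.28e-10). Each of these shares lay above the 0.143% of the microglia markers, the measure of microglial RNA in that fraction.

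**Figure D4:**
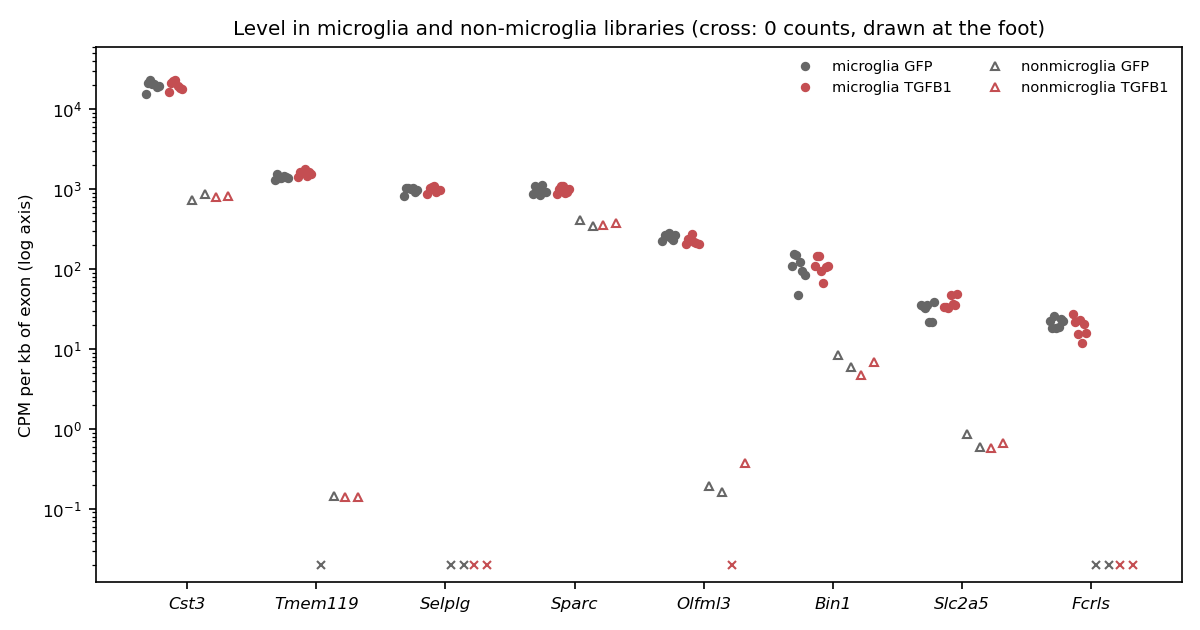
CPM per kb of exon (log vertical axis) in each of the 18 libraries, microglia as filled circles and non-microglia as open triangles, GFP in grey and TGFB1 in red, with crosses at the foot for 0 counts. Sparc has the smallest distance between fractions, and Selplg and Fcrls have crosses in all 4 non-microglia libraries.

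In non-microglia, TGFB1 against GFP gave no call for the 3 genes abundant enough to be tested, beside 53 of 13598 genes called (0.39%, of which 0.338% higher and 0.0515% lower). The log2 fold change was 0.01 for Cst3 (SE 0.08, edgeR adjusted p = 0.991), -0.28 for Bin1 (SE 0.24, adjusted p = 0.901) and -0.03 for Sparc (SE 0.08, adjusted p = 0.981), with none of the 3 under an unadjusted p of 0.05. The difference between the microglia and non-microglia effects was called for 0 of the 8 genes, beside 2 of 15321 (0.0131%). It was 0.07 for Sparc (SE 0.15), -0.01 for Cst3 (SE 0.18), 0.31 for Bin1 (SE 0.59) and 0.53 for Slc2a5 (SE 0.64), each with an unadjusted edgeR p of 0.411 or more. For Tmem119, Olfml3, Fcrls and Selplg the non-microglia counts are too few for this difference to be read.

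Relatives of the 8 genes were called in either direction, family by family, beside 29.9% of all genes called higher and 34.2% called lower in GFP microglia. The cystatin gene Cst7 was higher in GFP microglia, with 0 counts in GFP non-microglia, while Cstb was higher by 0.98 on the log2 scale (edgeR adjusted p = 0.000116). Among SPARC relatives, 5 of 6 tested were lower in microglia and 0 higher, unlike Sparc: Fstl1, a follistatin-like protein, by -4.99 (adjusted p = 7.45e-13) and Sparcl1 by -2.43 (adjusted p = 0.000449). Among olfactomedin genes, 4 of 6 were lower, such as Olfm2 (-5.23, edgeR adjusted p = 4.56e-08), and only Olfml2b was higher (0.95, adjusted p = 0.0272).

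Among sugar transporters, 3 of 7 tested were higher in microglia and 3 lower. Slc2a6, a transporter of myeloid cells, was higher by 4.49 (edgeR adjusted p = 6.04e-11) and Slc2a9, a urate transporter, by 3.72 (adjusted p = 3.90e-06), while Slc2a1, the glucose transporter GLUT1, was lower by -2.39 (adjusted p = 2.87e-11). Bin2 was higher by 9.86 (edgeR adjusted p = 1.60e-17) and Bin3 by 1.67 (adjusted p = 9.63e-08), and Amph, the neuronal amphiphysin, was lower by -5.08 (adjusted p = 6.96e-08). Bin2, at 731 ± 41.6 CPM in GFP microglia (n = 7), varied less between libraries than Bin1. Of the Fc receptor relatives all 4 tested, Fcgr1, Fcgr2b, Fcgr3 and Fcgr4, were higher in microglia, as Fcrls was, and Fcrl1, Fcrl5, Fcrla and Fcrlb were not tested. Of the sialomucins, Cd34 was higher by 4.79 (edgeR adjusted p = 7.88e-09), and Podxl (-3.68, adjusted p = 1.53e-05) and Cd24a (-4.19, adjusted p = 1.87e-07) were lower.

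**Figure D5:**
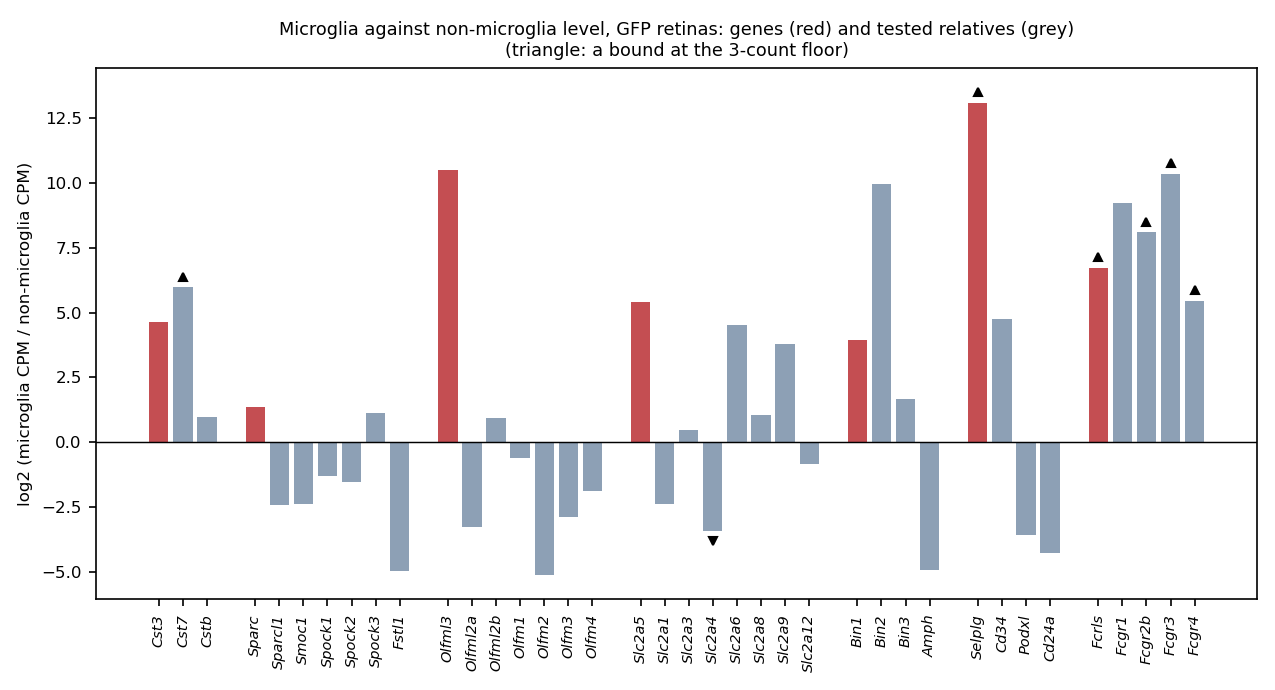
Log2 ratio of the microglia to the non-microglia level in GFP retinas for 7 of the genes (red) and their tested relatives (grey), with triangles where the value is a bound at the floor of 3 counts. Tmem119 has no relatives here and is left out. Sparc, Olfml3, Slc2a5, Bin1 and Selplg have relatives on both sides of 0, and the tested relatives of Cst3 and Fcrls all stand above 0.

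Per kb of exon, which allows levels of different genes to be compared, Cst3 was far ahead in GFP microglia at 19938 ± 2385 CPM per kb (n = 7), rank 4 of 10964 genes over all microglia libraries. Tmem119 followed at 1407 ± 68.6 CPM per kb (rank 27), then Selplg at 972 ± 73.5 (rank 38) and Sparc at 962 ± 103 (rank 39), whose ranges overlapped. Olfml3 stood at 255 ± 20.8 CPM per kb, Bin1 at 109 ± 38.0, Slc2a5 at 31.4 ± 6.75 and Fcrls at 21.4 ± 3.13. The ranges of Slc2a5 and Fcrls overlapped in GFP libraries and not in TGFB1 libraries, and the order was the same in both. Together the 8 genes took 3.03% to 3.85% of all counts in GFP microglia and 3.25% to 3.95% in TGFB1 microglia, against 0.306% to 0.330% in non-microglia. Most of these counts were of Cst3 in microglia, and of Sparc and Cst3 in non-microglia.

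The protein-coding genes most alike in pattern were found by the root mean square difference of centred log2 CPM over the 18 libraries of both fractions, among 12999 genes. Both fractions entered this measure, so the gap between fractions carries much of it. Likeness among microglia libraries alone was not measured. The genes found included others of the homeostatic list, which were likewise higher in microglia. Selplg was closest to Cx3cr1, the fractalkine receptor (0.29), and to the complement gene C1qb (0.35). Tmem119 was closest to the complement gene C1qa (0.30) and to Selplg itself (0.42). Olfml3 was closest to Cd53 (0.34), a leukocyte tetraspanin. Slc2a5 was closest to Golm1 (0.29), a Golgi membrane protein, and to Aim2 (0.29), a sensor of cytosolic DNA. Fcrls was closest to Tmigd3 and to Tlr9, a sensor of DNA in endosomes (0.24 each). Cst3 was closest to Rnase4, a secreted ribonuclease, and Arhgap4 (0.12 each), and Sparc to the dynamin gene Dnm2 (0.09) and the myelin gene Pmp22 (0.11), which were likewise present in both fractions. Bin1 was closest to the predicted gene Gm49673 and to Prkcd, a protein kinase C gene (0.25 each).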

How the data were processed

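RNA-seq gene counts of 18 libraries were used. The authors deposited raw read counts per Ensembl gene; per the submitters' processing notes, reads were processed with STAR and featureCounts on GRCm38.p6, and DESeq2 was used, with versions not given in the sources used here. Per the labels' protocols, retinas were dissociated with papain, cells were sorted after antibody staining, and libraries were made by a modified Smart-Seq2 protocol, whose reads carry no molecular identifiers. Counting intervals (exact, 95%) and floors of 3 counts thus cover counting error only. Whether counting used strand is not given.

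Of 54532 identifiers, 54495 were matched to a symbol in GENCODE M21 (GRCm38). Groups came from the sample titles. The main test was edgeR 4.0.16 (R 4.3.3), using TMM factors, its filterByExpr count filter, robust dispersion and the quasi-likelihood F test, with Benjamini-Hochberg adjustment over all genes tested and calls under 0.05. Treatments were compared within microglia and within non-microglia; fractions and the difference of effects came from 1 fit of all 18 libraries. The standard error is the log2 fold change divided by the square root of F. Alternatives used DESeq2 1.42.0, limma 3.58.1, other scaling, filters, covariates and left-out libraries. The scripts were tested on simulated counts.

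The 8 genes and all gene lists were chosen with earlier results of these data known. Named list genes are up to 4 called genes with the smallest p, or the 2 with the smallest p where none was called. Olfml2b in the comparison of fractions and Tgfb1 in microglia were named after their values were seen. For each of the 8 genes the 2 genes most alike in pattern are named, except that 1 of them is not reported here.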

Additional observations from a re-analysis of the deposited data

Results flagged for a closer look

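Olfml3 in TGFB1 microglia had 1 library far from the others, replicate 5 at 1555 CPM, above 6 of the 7 GFP libraries. The other values were of relatives or marker sums in libraries high in RNA of other retinal cells. Sparcl1 was far above the other libraries in GFP replicate 2 (68.7 CPM) and in TGFB1 replicate 6 (42.2 CPM), and Spock2 in TGFB1 replicate 6 (17.7 CPM). Summed Mueller glia markers stood apart in TGFB1 replicate 6 (669 CPM), and summed endothelial and pericyte markers in GFP replicate 2 (144 CPM) and TGFB1 replicate 6 (90.6 CPM). Chance gives such a gap in about 1 of 20 groups, and 64 groups were examined.

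The effect of treatment on Tgfb1 itself differed between fractions, by a fitted log2 value of -11.20 (edgeR adjusted p = 1.55e-08). That value was fitted against 0 counts in GFP non-microglia and depends on the prior count.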

How the results depend on the processing

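The 8 genes were called higher in microglia in both treatments under all 22 alternatives. Between microglia treatments, 0 of 8 were called in 26 of 27 alternatives, and 1 with DESeq2. The count of called genes, 34, was 64 without the filter, 60 with the replicate block, 56 with a covariate for Xist, 20 with one for Mueller glia level, 15 in the fit of all 18 libraries, 4 in replicates 2 to 4 or 5 to 8 alone, and 16 to 34 leaving out 1 library (19 without GFP replicate 3, 21 without TGFB1 replicate 7, 16 without TGFB1 replicate 8). In non-microglia, 53 became 102 without the filter, 33 with DESeq2, 109 with the replicate block, 4 in the fit of all 18 libraries and 28 to 110 leaving out 1 library (110 without either GFP library, 28 without TGFB1 replicate 1). For the difference of effects, 2 became 12 without the filter, 1 without robust dispersion, 4 with DESeq2, 1 with the replicate block and 1 to 2 leaving out 1 library. Same-numbered microglia libraries had correlations of deviations of -0.12 to 0.22, not all over 0.1, and 1 of 7 numbers matched best with itself. Xist, however, had 1291 counts or more in both treatments at replicates 2, 7 and 8, and 2 or fewer in both at replicates 3 to 6. The labels do not say whether the numbers pair the libraries, and the main test did not use them as pairs. With the replicate block, 0 of the 8 were called.

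Log2 fold changes that changed sign, none of them called, were in microglia Bin1 (-0.14 with the Mueller glia covariate, -0.079 in replicates 2 to 4, -0.041 without the 3 libraries highest in Mueller glia markers, an alternative chosen after seeing the data, and -0.11 to 0.12 leaving out 1 library), Sparc (-0.0083 with that covariate, -0.0079 without those 3, and -0.0025 to 0.062), Slc2a5 (-0.047 in replicates 2 to 4), Cst3 (0.00091 in replicates 5 to 8, -0.057 to 0.033) and Selplg (-0.0036 to 0.051). In non-microglia, leaving out 1 library gave -0.10 to 0.14 for Cst3 and -0.15 to 0.093 for Sparc. For the difference of effects it gave -0.12 to 0.085 for Cst3, -1.19 to 4.25 for Olfml3, -0.0027 to 0.058 for Selplg (-0.026 with DESeq2), -0.076 to 0.20 for Sparc and -2.65 to 0.20 for Tmem119. The causes were not tested.

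Low counts of these genes limited the non-microglia side: with 2 libraries per treatment and 0 to 10 counts in each for 5 of the 8 genes, no treatment effect on them was detectable there. The non-microglia libraries themselves held 2318212 to 2604930 counts in GFP and 2378669 to 2392931 in TGFB1, inside the range of the microglia libraries.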

Other observations

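Xist RNA was counted 1291 to 1952 times in 6 microglia libraries (GFP replicates 2, 7 and 8 and TGFB1 replicates 2, 7 and 8) and 0 to 2 times in the other 8. Levels of the 8 genes were set beside this split after they were seen. The labels do not give it, it is not a group of the study, and no test was made. Cst3 was lower in the libraries with Xist in both treatments, with no overlap. In GFP microglia it ran from 19008 to 22938 CPM with Xist (n = 3) and from 24413 to 27069 CPM without (n = 4), and in TGFB1 microglia from 19265 to 21927 CPM and from 24058 to 27149 CPM. Of 10970 genes, 70 were lower without overlap in both treatments (0.638%) and 42 were higher (0.383%). Selplg was lower without overlap only in GFP, and Olfml3 only in TGFB1. The other 5 genes overlapped in both treatments. Libraries with Xist had 5.66% to 10.6% of counts in 3 rRNA repeat genes, against 8.34% to 11.3% in the others, and 19947 to 26333 detected genes, against 20536 to 22892. Their summed microglia markers were 40697 to 44400 CPM, against 39912 to 45537 CPM. The part of these measures in the Cst3 difference was not tested. The 4 non-microglia libraries had 0 or 1 Xist counts. The comparison of fractions thus set them beside microglia libraries with and without Xist, and the part of this in its values was not tested.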
